A study of Rattus norvegicus with 9 samples.

Results

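The cytosolic ribosomal protein genes are the genes for the proteins that, with ribosomal RNA, make up the ribosomes of the cytoplasm. Members were taken by name, without use of any measured value, as every gene with a single Rps or Rpl symbol in the array's probe annotation, together with Rpsa, Rplp0, Rplp1 and Rplp2 and without the S6 kinases. The rule found 71 genes among 14497 named genes, 27 of the small subunit and 44 of the large subunit. A gene was represented by the probe with the highest mean, a probe being one transcript cluster of the array. In all, 229 of the 28826 probes carried a member's symbol, 18 members had 1 probe, and Rpl21 had the most, 19. No filter on low values was set, so all 71 members were tested.

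RNA of whole lung was measured on Affymetrix rat gene arrays in 3 rats with metabolic syndrome (MetS) and 4 control rats. The MetS rats, Wistar animals labelled male, had been given a 30% sucrose solution in place of water for 24 weeks after weaning. The control rats, Wistar animals whose sex is not labelled, drank water, and both groups ate the same chow and fasted for 7 hours before decapitation. The first animal of each group was hybridised to 2 arrays, whose values were averaged, so that n counts animals. With so few animals, all values below have limited precision.

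Ribosomal proteins are needed in equal numbers, since each ribosome holds one copy of nearly all of them, and their messenger RNAs are among the most abundant of a cell. Those messengers begin with a terminal oligopyrimidine (TOP) tract, a cytosine followed by a run of cytosines and thymines, which lets growth signals through mTORC1 and the RNA-binding protein Larp1 set how much of them is translated. Ribosomal RNA comes from RNA polymerase I and is joined with the proteins in the nucleolus, and some ribosomal proteins have further roles, such as control of p53.

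No ribosomal protein gene passed the test between MetS and control lungs, and most differences were small. With limma's moderated test, adjusted over all probes by the Benjamini-Hochberg method, 0 of 71 members had an adjusted p under 0.05, as did 0% of all probes, and the smallest adjusted p of a member was 0.367. At an unadjusted p under 0.05, 0 members were lower in MetS lungs, against 9.91% of all probes, and 0 were higher, against 3.82%. By mean value 57 of the members lay above percentile 95. Of the 1325 probes in the brightest 5% without a member's symbol, 21 were lower and 44 higher at that level. The difference, MetS minus control on the log2 scale, was below 0 for 22 of the 27 small subunit genes and 35 of the 44 large subunit genes. Its median was -0.06 in each subunit, beside 0.01 over all probes and 0.04 over all named genes. Members had thus mostly slight negative differences, and the 95% interval of every difference included 0. The 95% interval of the difference lay within 1.5-fold in either direction for 68 members, and within 1.25-fold for 49. The 3 whose interval reached 1.5-fold were Rps10, Rps25 and Rpl22l1.

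**Figure D1:**
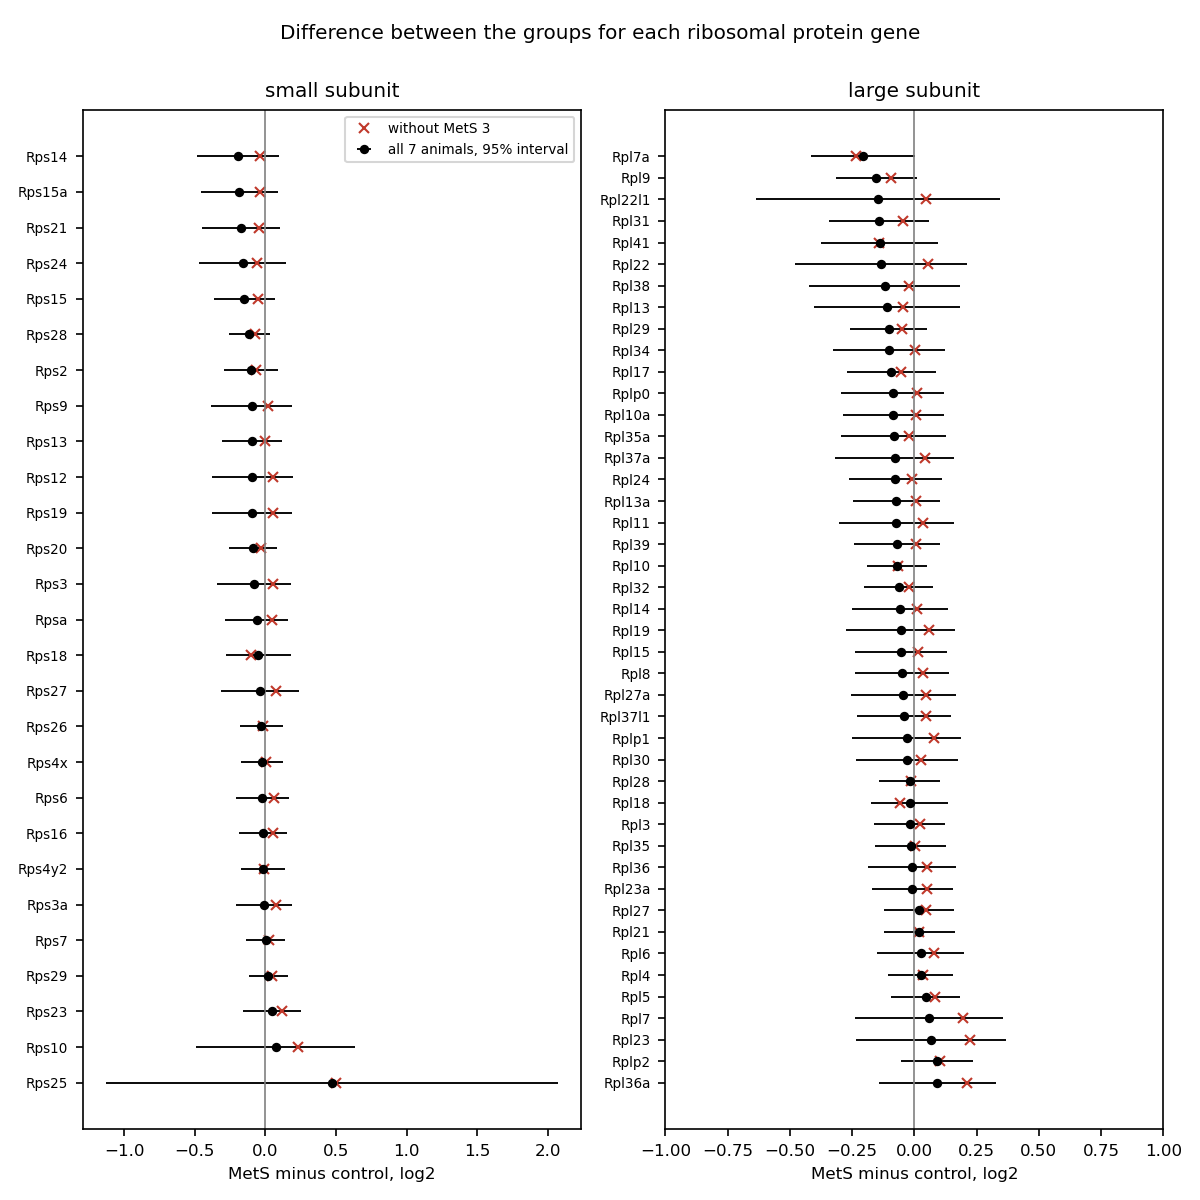
Difference between the groups (MetS minus control, log2) for each of the 27 small and 44 large subunit genes, with black points and 95% intervals for all 7 animals (3 MetS, 4 control) and red crosses for the difference without MetS animal 3; the 2 panels have different x ranges. All intervals include 0, and without MetS animal 3 the crosses lie above 0 for 45 of the 71 genes.

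One animal held most of the shift. MetS animal 3 was singled out after its values were seen, so what follows describes that animal and is no comparison of groups. Of the 71 members, 52 (73.2%) had their lowest value of all 7 animals in MetS animal 3, 20 in the small subunit and 32 in the large one. The same animal was lowest for 9.96% of all probes and for 16.8% of the 1325 other probes in the brightest 5%. It lay below all 4 controls for 54 members and above all 4 for 0, against 18.4% and 19.1% of all probes. The other two MetS animals had other counts. MetS animal 1 lay below all controls for 18 members, against 26.8% of all probes, and above them for 12, against 25.6%. MetS animal 2 lay below them for 5 members, against 20.8% of all probes, and above them for 26, against 24.3%.

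Set against the mean of the controls, the median member was 0.21 lower on the log2 scale in MetS animal 3, in the small and the large subunit, which is a ratio of 0.866. For MetS animal 1 the median was -0.01 in the small and 0.00 in the large subunit, and for MetS animal 2 it was 0.03 in both. The medians of the 2 subunits thus lay within 0.01 of each other in each MetS animal. Relative to each gene's mean over 7 animals, the small subunit median was 0.03, 0.05 and -0.18 in MetS animals 1 to 3, against 0.01, -0.02, 0.03 and 0.09 in controls 1 to 4. For the large subunit it was 0.02, 0.05 and -0.18 in the MetS animals, against 0.03, 0.00, 0.01 and 0.04 in the controls. MetS animal 3 is the lowest value in both series, and the other animals of both groups overlap.

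**Figure D2:**
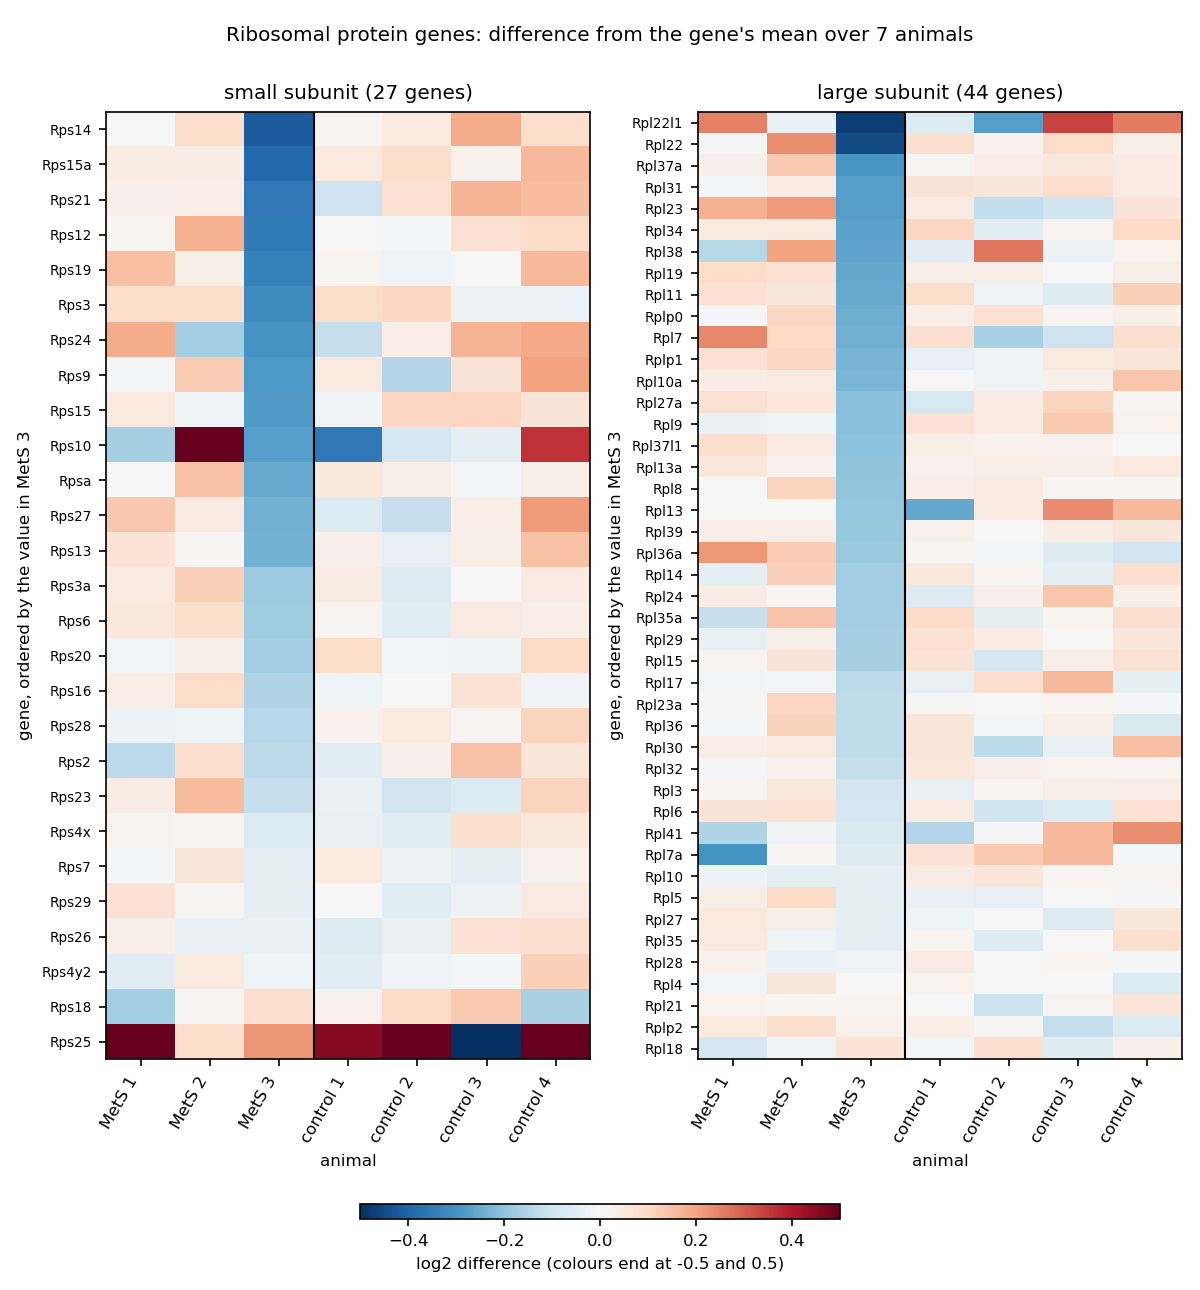
Log2 difference of every ribosomal protein gene from its own mean over the 7 animals, with 27 small subunit genes in one panel and 44 large subunit genes in the other, genes ordered by MetS animal 3, and MetS animals left of the controls. The column of MetS animal 3 is below the gene's mean for 65 of the 71 genes, and the low value of Rps25 in control animal 3 ends the colour scale.

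Members differed in how far they lay below their mean in MetS animal 3. It was below the gene's mean for 65 members (91.5%, against 54.1% of all probes) and by more than 0.2 for 29 of them, against 10.8% of all probes. The widest deviations were those of Rpl22l1 at -0.47, Rpl22 at -0.45, Rps14 at -0.42 and Rps15a at -0.39. The probe of Rpl22l1 lay at percentile 42.3 of all probes by mean value. Its second array minus its first was -0.35 in MetS animal 1 and 0.29 in control animal 1. Rps18, Rps25, Rpl18, Rpl21, Rpl4 and Rplp2 lay above their mean in that animal. The median deviation was -0.27 for the 15 members with a mean under 11, -0.19 for the 17 between 11 and 12, -0.17 for the 31 between 12 and 13, and -0.06 for the 8 above 13. Members' mean values reached 13.68 where the highest value of the table was 14.16, and differences are compressed near the top of an array's range. What part the scale had in that order was not tested.

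Other probes of the same genes gave a like picture. Among the 158 member probes that did not stand for their gene, 100 (63.3%) were lowest in MetS animal 3, with a median deviation of -0.19. Of the 37 genes with several probes whose main probe was lowest there, 35 had another probe that was lowest there too. Probes with the same symbol can read near-identical copies of a ribosomal protein gene, so they are no independent measurements.

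Within the MetS group, which includes MetS animal 3, the lowest animal for 52 members, the members spread more than within the controls. The spread without that animal was not analysed here. The median SD over animals was 0.146 in MetS lungs and 0.0646 in control lungs, and the MetS SD was the larger for 57 members (80.3%). Over all probes the MetS SD was the larger for 32.7%, and over the other probes in the brightest 5% for 55.3%. The 2 arrays of one animal differed less: the median absolute difference between them over the members was 0.0394 in MetS animal 1 and 0.0486 in control animal 1. For single members the second array minus the first ran between -0.35 and 0.19 in MetS animal 1 and between -0.12 and 0.38 in control animal 1. MetS animal 3 had 1 array, so an effect of the array and one of the animal cannot be told apart. In whole tissue, fewer cells of a type and less RNA per cell cannot be told apart either.

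Without MetS animal 3 the sign of the medians turned. The median difference was then 0.02 in each subunit, with 26 members lower and 45 higher in MetS lungs. At an unadjusted p under 0.05, 2 members were then higher, against 2.67% of all probes, and 0 were lower, against 8.33%. Of the 1325 other probes in the brightest 5%, 25 were then higher and 22 lower. The 2 members were Rpl23, 0.22 higher on the log2 scale, and Rpl36a, 0.21 higher, and neither passed the adjusted threshold.

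**Figure D3:**
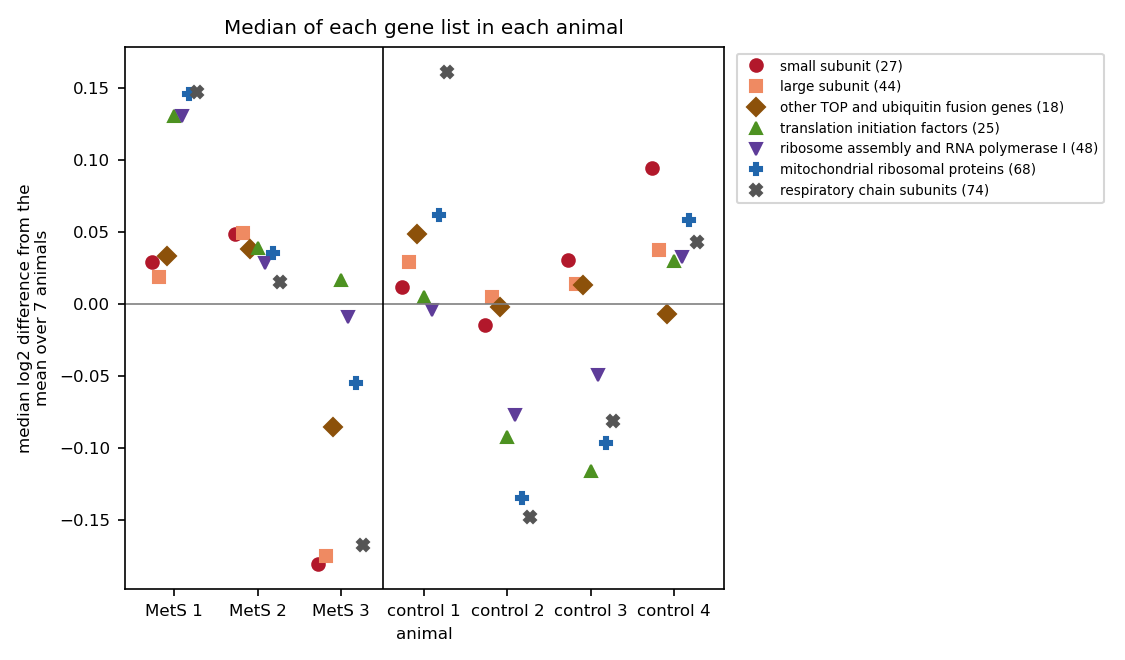
Median log2 difference from the mean over 7 animals for each gene list (number of genes measured in brackets) in each animal, MetS animals left of the line and controls right of it. Both ribosomal subunits lie at -0.18 in MetS animal 3 and between -0.02 and 0.09 in the other 6 animals.

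The TOP tract is a feature of sequence that the rule did not use. RefSeq promoters of the assembly GRCr8 were found for 60 members, 24 of the small and 36 of the large subunit. The annotated start was a C with at least 4 further C or T after it in 23 of the 60 (38.3%), 7 of the small and 16 of the large subunit, against 2.63% of all 33469 windows. An annotated start can lie some bases from the true one, so a missing tract says only that these letters are not at that position. The windows below hold 15 bases before the start and 15 from it on, with the tract in capitals, for genes whose values are given further on.
Rpl9, chr14:43247575-43247604, plus strand: gacgaaggacgttctCTCTTTgccccatct
Rpl31, chr9:49143096-49143125, plus strand: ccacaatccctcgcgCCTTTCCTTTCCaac
Rps14, chr18:56498245-56498274, plus strand: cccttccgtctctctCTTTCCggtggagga
Rps15, chr7:10068101-10068130, minus strand: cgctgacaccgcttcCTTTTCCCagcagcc
Rpl10, chrX:157205835-157205864, plus strand: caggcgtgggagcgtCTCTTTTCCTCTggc
Rpl22, chr5:168117946-168117975, plus strand: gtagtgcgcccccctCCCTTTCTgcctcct
Rpl7a, chr3:30637121-30637150, plus strand, no tract at the annotated start: ctctcctccagccgagcaagatggtgagtg
Rps28, chr7:15311319-15311348, minus strand, no tract at the annotated start: gcatcccctgctcacgtgactcctctccgc
The median deviation in MetS animal 3 was -0.21 for the 23 members with the tract and -0.18 for the 37 without it, so members of both kinds lay below their means there.

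Short motifs were searched on both strands of the whole window, 250 bases before the start and 50 after it. CCGGAAG, the core bound by ETS factors, was found in 18 members (30%), against 8.75% of all promoters. It lay before the start in 15 of them (25%), against 7.27% of all promoters. GGGCGG, the letters bound by SP1, was found in 35 members (58.3%), against 33.1%, and in the 250 bases before the start also in 35, against 30.5%. AAGATGG, bound by YY1, was found in 8 members (13.3%), against 7.01%, but before the start in 1 of them (1.67%), Rps14, against 4.62%. TATAAA was found in 7 members (11.7%), against 14.2%. A match describes letters and is no evidence of binding. The 250 bases before the start of Rps14, a gene with one of the widest deviations in MetS animal 3 and with 3 of the 4 motifs, are shown with the matches on both strands in capitals, including reverse complements.
Rps14, chr18:56498010-56498259, plus strand: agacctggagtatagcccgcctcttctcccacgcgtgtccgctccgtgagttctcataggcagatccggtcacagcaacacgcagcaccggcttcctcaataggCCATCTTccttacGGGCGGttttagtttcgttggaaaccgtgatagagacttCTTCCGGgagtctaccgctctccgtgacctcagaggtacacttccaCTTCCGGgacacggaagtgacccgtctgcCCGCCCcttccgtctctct

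Among single genes, 3 members had MetS values that all lay below the controls, and 0 had MetS values that all lay above them, against 6.84% and 4.88% of all probes. Of the 1325 other probes in the brightest 5%, 20 had all MetS values below the controls and 95 had all above them. Rpl9, a protein of the large subunit whose start is shown above, had values of 11.93, 11.94 and 11.75 in MetS animals 1 to 3, against 12.03, 12.00, 12.09 and 11.98 in controls 1 to 4. The groups did not overlap, with MetS animals 1 and 2 close to the lowest control and MetS animal 3 further down. The difference was -0.15 ± 0.07 (SE from limma, as for all differences below), with an adjusted p of 0.382. Rps28, which sits near the exit of the mRNA channel of the small subunit, had 11.86, 11.86 and 11.74 in MetS animals, against 11.91, 11.94, 11.90 and 12.00 in controls. Again MetS animal 3 was the lowest, and the gap between the groups was narrow. The difference was -0.11 ± 0.06, with an adjusted p of 0.434. Rpl10, the large subunit protein that is added late in assembly and allows the subunits to join, had 12.92, 12.90 and 12.90 in MetS animals, against 12.99, 13.01, 12.95 and 12.96 in controls. Its MetS values were close together, and its difference of -0.07 ± 0.05 had an adjusted p of 0.544.

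Rpl7a, a large subunit protein, had the smallest p of the members, and there MetS animal 1 and not MetS animal 3 was the lowest. Its values were 11.51, 11.81 and 11.75 in MetS animals, against 11.88, 11.94, 11.97 and 11.80 in controls. MetS animal 2 lay above control animal 4, so the groups overlapped. The difference was -0.21 ± 0.09, with an adjusted p of 0.367, and it was -0.12 without MetS animal 1. Rpl31, at the rim of the tunnel through which the new protein leaves, had 12.94, 12.98 and 12.67 in MetS animals, against a lowest control at 12.98 and a highest at 13.03. Here MetS animal 3 stood apart from 6 values within a narrow band, and the difference of -0.14 ± 0.09 had an adjusted p of 0.470. The difference of Rpl29 was -0.10 ± 0.07, with an adjusted p of 0.495.

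The small subunit genes with the smallest p after Rps28 were Rps15, Rps15a, Rps14 and Rps21. Rps15, on the head of the small subunit near the decoding site, had 12.40, 12.33 and 12.06 in MetS animals, against 12.33, 12.45, 12.46 and 12.41 in controls. Rps15a had 10.60, 10.60 and 10.17 in MetS animals, against 10.61, 10.65, 10.58 and 10.72 in controls. Rps14, whose loss in humans is known from the 5q- form of myelodysplasia, had 11.10, 11.19 and 10.69 in MetS animals, against 11.11, 11.15, 11.29 and 11.19 in controls. In each of these genes MetS animals 1 and 2 lay among or next to the controls and MetS animal 3 lay well below all other animals. The differences were -0.15 ± 0.09 for Rps15, -0.18 ± 0.12 for Rps15a, -0.19 ± 0.12 for Rps14 and -0.17 ± 0.12 for Rps21, with adjusted p between 0.476 and 0.516. Without MetS animal 3 they were -0.05, -0.04, -0.04 and -0.04.

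**Figure D4:**
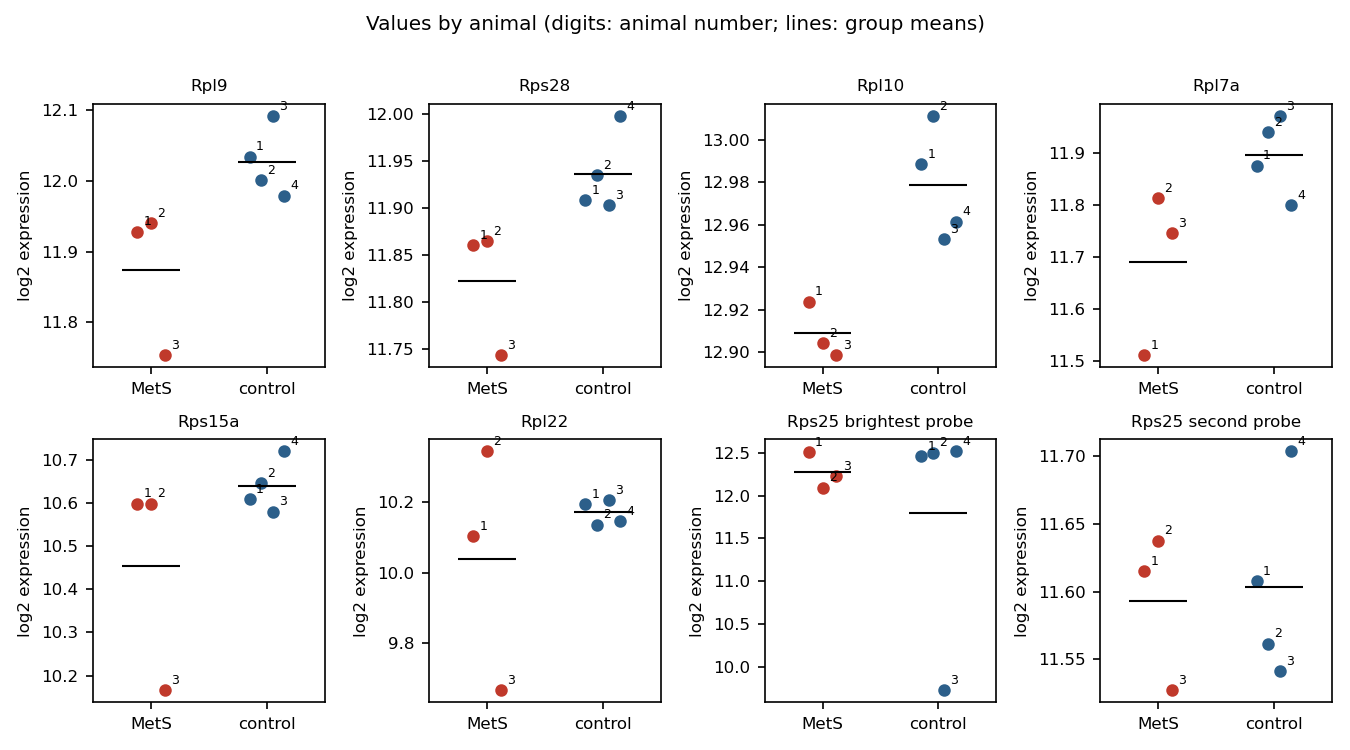
Log2 values of Rpl9, Rps28, Rpl10, Rpl7a, Rps15a, Rpl22 and both probes of Rps25 by group (MetS red, control blue), with a point per animal, the animal's number beside it and a line at the group mean; each panel has its own y range. MetS animal 3 is lowest in 5 of the 7 genes by their main probe, and the low value of control animal 3 at 9.73 is seen in 1 of the 2 probes of Rps25.

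The stalk proteins Rplp0, Rplp1 and Rplp2 recruit elongation factors to the large subunit. Rplp2 had 13.09, 13.12 and 13.07 in MetS animals, against 13.07, 13.05, 12.92 and 12.97 in controls. It was one of the few members with higher MetS values, though the groups overlapped, and the difference of 0.09 ± 0.06 had an adjusted p of 0.515. Rplp0 had 12.06, 12.18 and 11.83 in MetS animals, against 12.11, 12.15, 12.08 and 12.10 in controls, a difference of -0.09 ± 0.09. Rplp1 had a difference of -0.03 ± 0.09. MetS animal 3 was the lowest animal for Rplp0 and Rplp1 but not for Rplp2, so the 3 stalk genes did not share 1 order of animals.

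Among genes known for a role in p53 control, Rpl5 and Rpl11 bind the 5S ribosomal RNA and, when assembly fails, the p53 ligase Mdm2. Rpl5 had 12.64, 12.71 and 12.56 in MetS animals, against 12.58, 12.57, 12.61 and 12.61 in controls, and Rpl11 had 12.35, 12.33 and 12.02, against 12.36, 12.25, 12.21 and 12.39. MetS animal 3 was the lowest for both, only slightly so for Rpl5. The differences were 0.05 ± 0.06 for Rpl5 and -0.07 ± 0.10 for Rpl11. Rpl23, which also binds Mdm2, had 10.21, 10.25 and 9.76 in MetS animals, against 10.08, 9.92, 9.94 and 10.10 in controls. MetS animals 1 and 2 lay above every control and MetS animal 3 below every control, and the difference was 0.07 ± 0.13. Rps19 and Rps24, the loss of which is known from Diamond-Blackfan anaemia in humans, had differences of -0.09 ± 0.12 and -0.16 ± 0.13. Rps24 had 10.93, 10.57 and 10.45 in MetS animals, against 10.62, 10.78, 10.91 and 10.93 in controls, so that here MetS animal 2 was low as well.

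Rps6, the substrate of the S6 kinases, had 12.97, 13.00 and 12.74 in MetS animals, against 12.93, 12.86, 12.96 and 12.95 in controls. MetS animals 1 and 2 were above all controls and MetS animal 3 below them, with a difference of -0.02 ± 0.08. The remaining genes with known further roles had differences between -0.12 and -0.06. They were Rpsa, also known as a laminin receptor, at -0.06 ± 0.10, and Rps3, which lines the entry of the mRNA channel and takes part in DNA repair, at -0.08 ± 0.11. Rpl13a, which silences inflammatory messengers in human cells after interferon gamma, was at -0.07 ± 0.07. Rpl10a was at -0.08 ± 0.09, and Rpl38, needed in the mouse for translation of Hox messengers, was at -0.12 ± 0.13. None of these had an adjusted p under 0.05.

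Paralogue pairs were looked at together. Rpl22, known in the mouse for a role in T cell development, had 10.10, 10.35 and 9.67 in MetS animals, against 10.20, 10.14, 10.21 and 10.15 in controls. Rpl22l1, its paralogue, had 7.54, 7.25 and 6.81 in MetS animals, against 7.22, 7.01, 7.62 and 7.54 in controls. Both were lowest in MetS animal 3, and the controls were close together for Rpl22 but spread for Rpl22l1. The differences were -0.13 ± 0.15 for Rpl22 and -0.15 ± 0.21 for Rpl22l1. Rps4x and Rps4y2 had differences of -0.02 ± 0.06 and -0.02 ± 0.07. Rpl3, near the peptidyl transferase centre, had a difference of -0.02 ± 0.06, Rpl39, in the exit tunnel, of -0.07 ± 0.07, and Rpl7 of 0.06 ± 0.13. Rps27 had a difference of -0.04 ± 0.12. By mean value, its probe lay at percentile 25.2 of all probes and that of Rps4y2 at 56.7, where 57 of the members lay above percentile 95. Rpl26, Rps27a, Rps27l, Rpl3l, Rpl39l, Rpl7l1, Rpl26l1 and Rpl10l had no probe with that single symbol and were not analysed here.

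The members with positive differences were few. Besides Rplp2, they were led by Rpl36a, with 13.01, 12.92 and 12.61 in MetS animals, against 12.80, 12.79, 12.73 and 12.71 in controls. MetS animals 1 and 2 lay above all controls and MetS animal 3 below all controls, so the difference of 0.09 ± 0.10 joined values on both sides. In the small subunit, Rps23 had 11.81, 11.93 and 11.66 in MetS animals, against 11.74, 11.69, 11.71 and 11.89 in controls, with a difference of 0.05 ± 0.09. The widest positive value was that of Rps25, a small subunit protein used by viral internal ribosome entry sites. Its main probe had 12.50, 12.09 and 12.22 in MetS animals, against 12.46, 12.50, 9.73 and 12.52 in controls, so that 1 value, in control animal 3, set the group difference of 0.47 ± 0.68. Without control animal 3 the difference was -0.22. The second probe of Rps25 had 11.62, 11.64 and 11.53 in MetS animals, against 11.61, 11.56, 11.54 and 11.70 in controls, a difference of -0.01 ± 0.07. The low value of control animal 3 was thus not seen in the second probe.

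A further list held genes that are not among the members but are known for a TOP tract or a fusion to ubiquitin. It includes Fau and Rack1, whose products are found on the ribosome. Of 21 genes listed 18 were measured, and they had a median difference of -0.02, with 14 lower and 4 higher in MetS lungs. Their medians per animal were 0.03, 0.04 and -0.09 in MetS animals, against 0.05, -0.00, 0.01 and -0.01 in controls, so MetS animal 3 was the lowest here too, by less than for the ribosomal protein genes. Fau, which encodes the small subunit protein Rps30 joined to a ubiquitin-like part, had 9.54, 9.31 and 9.13 in MetS animals, against 9.38, 9.47, 9.58 and 9.58 in controls. Rack1, a scaffold on the small subunit, had 12.86, 12.92 and 12.63 in MetS animals, against 12.87, 12.83, 12.80 and 12.80 in controls. Both were lowest in MetS animal 3, with differences of -0.18 ± 0.11 and -0.02 ± 0.08. The differences of the elongation factor genes Eef1a1 and Eef2 were -0.06 ± 0.06 and -0.00 ± 0.09, that of Tpt1 was -0.01 ± 0.05, and that of Npm1 was 0.05 ± 0.06.

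Genes on lists of ribosome supply and control lay mostly on the other side of 0, and controls 2 and 3 had the lowest medians of each list. Median differences were 0.07 for 25 translation initiation factors, with 22 higher and 3 lower, and 0.07 for 48 genes of ribosome assembly and RNA polymerase I, with 39 higher and 9 lower. For 25 genes of mTORC1 and MYC control the median was 0.10, with 23 higher and 2 lower. For 6 genes with an Rps6k symbol, which covers RSK as well as S6 kinases, it was 0.13, with 6 higher and 0 lower. Median deviations of the mTORC1 and MYC list were 0.07, 0.07 and 0.03 in MetS animals, against 0.02, -0.13, -0.13 and 0.04 in controls 1 to 4. For the initiation factors they were 0.13, 0.04 and 0.02, against 0.00, -0.09, -0.12 and 0.03. Controls 1 and 4 thus lay among or near the MetS animals. All named genes also had their lowest medians in controls 2 and 3, at -0.03 in each. Over all named genes 8995 differences were above 0 and 5502 below, while 57 of the 71 ribosomal protein genes had a difference below 0. At an unadjusted p under 0.05, 3 of 25 initiation factors and 1 of 48 assembly genes were higher in MetS lungs, against 3.82% of all probes. So were 5 of 25 genes of mTORC1 and MYC control and 1 of 6 Rps6k genes. These last lists overlap: Rps6kb1 is in both and is the gene counted among the Rps6k genes. No gene of the lists was lower, against 9.91% of all probes, and no adjusted p was under 0.05. Rps6kb1, the kinase of Rps6, had 9.11, 9.02 and 9.06 in MetS animals, against 8.92, 8.78, 8.91 and 8.98 in controls, without overlap, with a difference of 0.17 ± 0.07 and an adjusted p of 0.349. Eif4ebp2, a brake on initiation under mTORC1, had 10.12, 10.19 and 10.12 in MetS animals, against 9.99, 9.87, 9.78 and 9.97 in controls, also without overlap, and its adjusted p was 0.324. The differences of Mtor and Myc were 0.11 ± 0.08 and 0.04 ± 0.14.

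In MetS animal 3 the first of these lists lay near 0, unlike the ribosomal protein genes at -0.18. The median deviation there was 0.02 for the initiation factors, -0.01 for assembly and RNA polymerase I, and 0.03 for mTORC1 and MYC control. The ribosomes of mitochondria have their own proteins, and for the 68 genes of these the median was -0.05, with controls 2 and 3 lower at -0.13 and -0.10. For 74 subunits of the respiratory chain, a list added after the data were seen, it was -0.17, close to the -0.15 of control animal 2. Of these 74 genes, 32 (43.2%) were lowest in MetS animal 3 and 27 (36.5%) in control animal 2. The ribosomal protein genes had 5 members (7.04%) lowest in control animal 2.

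Marker genes of lung cells, 11 of 11 measured, had a log2 summed level of 16.38 in MetS animal 3, where the ranges were 16.34 to 16.38 in MetS and 16.31 to 16.35 in control animals. For lymphocytes, 9 of 11 measured, it was 12.77, with ranges of 12.54 to 12.80 in MetS and 12.58 to 12.78 in control animals. For myeloid cells, 7 of 7, it was 12.79, with ranges of 12.68 to 12.87 in MetS and 12.63 to 12.82 in control animals. Red cell genes, 4 of 5, stood at 13.63, with ranges of 13.59 to 13.80 in MetS and 13.10 to 13.62 in control animals. All 4 red cell genes were higher in MetS lungs, with a median difference of 0.57. By limma 3 of them had an unadjusted p under 0.05, against 3.82% of all probes higher, and 0 passed the adjusted threshold. Heart muscle genes, 5 of 5, stood at 9.81, with ranges of 9.81 to 11.93 in MetS and 9.40 to 13.30 in control animals, and liver genes, 4 of 4, at 9.73, with ranges of 9.67 to 9.75 in MetS and 9.57 to 10.16 in control animals. No marker is at 0 on this scale. The part of cell makeup in the low values of MetS animal 3 was not tested, nor was that of RNA quality, for which the labels give a minimum for all samples and no value per animal.

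**Figure D5:**
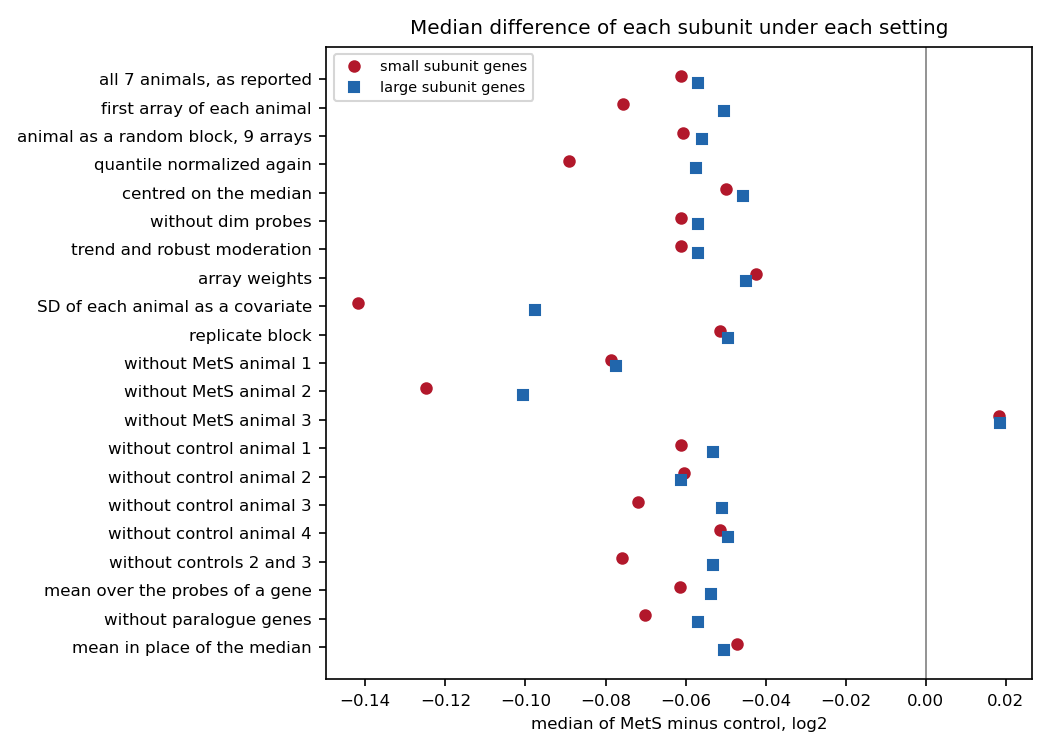
Median difference between the groups (MetS minus control, log2) over the small subunit genes (circles) and the large subunit genes (squares) as reported and under 20 other settings. All medians lie below 0 except those without MetS animal 3, at 0.02 for both subunits.

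The slight negative medians depended on 1 animal. Under 20 other settings of the processing, 19 gave a median below 0 in each subunit, and the one that did not was the fit without MetS animal 3.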

How the data were processed

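Lung RNA was extracted with Trizol and hybridised as biotinylated cRNA, per the labels' protocols. The authors deposited log2 values for 28826 probes on 9 arrays. The submitters' processing notes name RMA, R 2.11.0 and limma, without their roles. No build is given in the sources used here. In general use, RMA subtracts background, quantile normalizes the arrays together and returns log2 values.

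Arrays of one animal were averaged. MetS minus control was fitted over all probes by a linear model in limma 3.58.1 (R 4.3.3) with empirical Bayes moderation (7.28 degrees of freedom, 5 of them from animals), with Benjamini-Hochberg adjustment and a threshold of 0.05. The fit was tested on simulated data. Python 3.11.15 with pandas 2.3.3, numpy 2.4.6 and matplotlib 3.10.9 gave tables and plots.

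A probe took its name from the platform annotation where that gave a single symbol (15209 probes, 14497 genes), and the probe with the highest mean stood for a gene. The members, gene lists and the rule for named genes were chosen with earlier results of these data known. That rule took, in each subunit, the 5 smallest p and the 2 smallest p of opposite sign, genes with known further roles or paralogues, and, of related lists, the smallest p and genes set by role. Rpl30, Rpl18, Rpl21, Rpl4, Rps10, Rps18, Rpl19, Rps4y2 and Rps2 were named after their values were seen. Promoter sequences are RefSeq's, of GRCr8. Protein features were not analysed here.

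The labels give no batch, so none was tested. Shared replicate numbers were checked by correlating deviations from the group means over all probes, which gave 0.33, -0.04 and 0.21 for the same-numbered animals 1 to 3. Unlike-numbered animals gave -0.38 to 0.28. Such correlations, from deviations from the means of 3 and 4 animals, cannot decide whether the numbers pair animals. The labels do not say that they do, so the numbers were not taken as pairs. Other settings used a single array per animal, a random block for the animal over 9 arrays, renormalization, centring, filters, other moderation and array weights. Further ones used the replicate block (animals 1 to 3 of each group), the mean over a gene's probes, and fits without each animal or without controls 2 and 3 together.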

Additional observations from a re-analysis of the deposited data

Results flagged for a closer look

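Each member's 4 control values, and the median of each subunit, were checked for one value far from the others, by its gap to the nearest other value over the whole range (Dixon's ratio at the 95% level, 73 groups of 4). In this check chance flags about 1 in 20 groups, and 2 of the 73 were marked, fewer than that. Rps25 had a ratio of 0.979, from the value of 9.73 in control animal 3, where the other controls lay between 12.46 and 12.52. Rpl19, a large subunit protein, had a ratio of 0.988, also from control animal 3, at 12.76 where the other 3 controls were at 12.79, so that the gap was 0.03 on the log2 scale. The 3 MetS values were too few for such a check, so the low values of MetS animal 3 were not put to it.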

How the results depend on the processing

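No member passed the adjusted threshold under any setting run. Without MetS animal 3 the median difference turned from below 0 to 0.0182 in the small and 0.0185 in the large subunit; leaving out each animal in turn gave -0.12 to 0.02 and -0.10 to 0.02. With the replicate number as a block, a fit that leaves out control animal 4, 2017 probes passed the adjusted threshold, none of them a member's. All 7 animals without a block gave 0. The medians with the block were -0.05 and -0.05. At an unadjusted p under 0.05 by limma, 15.8% of probes were lower and 7.65% higher with the block. Without control animal 4 and without a block these were 14.4% and 6.99%. The labels do not say that the numbers pair animals. With all 7 animals and no block, 0 of 71 members were lower at an unadjusted p under 0.05, against 9.91% of all probes. The count was 1 with the animal as a random block over 9 arrays (Rpl9, against 9.44% of probes), with centring on the median (Rpl7a, 10%), without dim probes (Rpl7a, 5.23%), with each animal's SD as a covariate (Rpl30, 1.87%) and with the replicate block (Rpl7a, 15.8%). It was 2 with trend and robust moderation (Rpl7a, Rpl9, 9.43%) and with the mean over a gene's probes (Rps15a, Rpl9, 9.92% of features). On leaving out single animals it ranged from 0 to 1, against 4.7% to 14.4% of probes, and the count of higher members from 0 to 2, against 1.82% to 6.99%. Of 612 values of 34 named genes under other settings, 575 kept direction and side of the threshold, and 37, in 20 genes, changed sign, 15 of them without MetS animal 3. With 3 animals against 4, the test did not tell differences of the size seen here from 0 after adjustment.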

Other observations

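Some further probes with a member's symbol differed more than the probe that stood for the gene. Of the 158 such probes, 8 were lower in MetS lungs at an unadjusted p under 0.05 and 0 were higher, against 9.91% and 3.82% of all probes, and none passed the adjusted threshold. They belonged to Rpl9 (3 probes), Rpl7a (2), Rps2 (2) and Rps15a (1). The widest was a dim probe of Rps15a, with 4.56, 4.35 and 4.69 in MetS animals, against 5.22, 5.48, 6.38 and 5.63 in controls, a difference of -1.14 ± 0.26 with an adjusted p of 0.324 by limma. Its groups did not overlap, and MetS animal 3 was the highest of the 3 MetS animals. The main probe of Rps15a had a difference of -0.18 ± 0.12 and was lowest in MetS animal 3, so the probes of 1 gene gave different orders of animals. A probe of Rpl9 had 10.29, 10.48 and 9.90 in MetS animals, against 10.53, 10.54, 10.87 and 10.57 in controls, a difference of -0.40 ± 0.15. A probe of Rpl7a had 7.85, 8.08 and 7.74 in MetS animals, against 8.13, 8.29, 8.40 and 8.16 in controls, a difference of -0.35 ± 0.10. Which copy of the gene each of these probes reads was not analysed here.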
